A study of Mus musculus with 12 samples.

Results

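Intergenic long noncoding RNA regions were followed in the aorta of C57BL/6J mice under a challenge that causes aortic dissection, with and without rapamycin. A region is a range of the mouse genome (build mm9) ending in F or R, taken here as the forward or reverse strand, that the array covers with 60-base probes under the name lincRNA (long intergenic noncoding RNA), although 158 of the regions kept hold a coding gene's probe inside. The members were chosen by the scanner's detection flag: a probe counted where, in 1 or more of the 4 groups, each of the 3 arrays showed it well above background. By this rule 4997 of 16181 such probes were kept, 4996 of which had a value on every array, and they covered 2480 of the 4607 regions on the array in 2060 of its 3540 coordinate ranges. The flags are signal values of the same arrays, so detection is a description here and not a result, and a probe that passed through 1 group had to be brighter there.

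The 12 arrays came from 4 groups of 3 samples, all of aorta taken at day 3. DMSO mice received the vehicle dimethylsulfoxide. Rapamycin mice received 2 mg/kg/day of rapamycin, an inhibitor of the growth kinase mTOR. BA+DMSO mice received β-aminopropionitrile (BAPN) at 150 mg/kg/day and angiotensin II (AngII) at 1 µg/kg/min with the vehicle. BA+rapamycin mice received BAPN, AngII and rapamycin at the same doses. BAPN blocks the cross-linking of collagen and elastin, and AngII is a hormone that acts on the vessel wall. Per the methods the mice were males of 11 to 14 weeks, and the piece of aorta lay above the right renal artery. The design counts 3 mice in each group but does not tie each array to 1 of them, so each p-value measures the spread between these samples, which may be technical.

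Long intergenic noncoding RNAs are transcribed by RNA polymerase II away from coding genes, are often spliced, and are on the whole scarcer and more restricted to single cell types than messenger RNAs. Some act on the gene next to them, others act elsewhere, and for many only the act of transcription is known. In a bulk sample such as whole aorta, more cells of a type and more RNA per cell cannot be told apart.

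The probes that carried the largest differences are shown first, with their mm9 positions, so that each value below can be tied to the bases that were measured. The sequences are those of the array design, written 5′ to 3′. The first set belongs to 5 of the 10 rises that the naming rule gave under the challenge, a rule that takes 1 probe per range and asks for detection on every array of the higher group.

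chr17:95150800-95180650_F, probe at chr17:95174242-95174301: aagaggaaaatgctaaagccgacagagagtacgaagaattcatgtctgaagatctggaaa
chr17:95149413-95174473_F, probe at chr17:95174346-95174405: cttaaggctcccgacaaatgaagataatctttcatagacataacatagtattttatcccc
chr10:117021051-117038683_F, probe at chr10:117032784-117032843: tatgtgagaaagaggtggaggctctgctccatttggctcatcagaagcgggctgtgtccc
chr9:14460976-14488051_F, probe at chr9:14484590-14484649: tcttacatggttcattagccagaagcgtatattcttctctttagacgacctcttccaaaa
chr11:16831925-16851121_R, probe at chr11:16835674-16835733: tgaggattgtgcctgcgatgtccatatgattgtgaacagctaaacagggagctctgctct

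The second set tiles 1 locus on the reverse strand of chromosome 2, in which every probe rose.

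chr2:128137419-128141735_R, probe at chr2:128137420-128137479: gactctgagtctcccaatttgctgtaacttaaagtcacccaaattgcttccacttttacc
chr2:128142035-128142481_R, probe at chr2:128142132-128142191: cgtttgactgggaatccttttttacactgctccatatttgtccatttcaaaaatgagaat
chr2:128211990-128215223_R, probe at chr2:128212225-128212284: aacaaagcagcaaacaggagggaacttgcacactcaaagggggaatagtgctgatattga
chr2:128217275-128217972_R, probe at chr2:128217446-128217505: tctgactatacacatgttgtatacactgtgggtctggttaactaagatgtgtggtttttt

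The third set holds regions that were lower under the challenge, and a region on the other strand of 1 of them.

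chr4:3169583-3180017_F, probe at chr4:3169711-3169770: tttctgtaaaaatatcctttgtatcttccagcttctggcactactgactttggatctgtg
chr16:13514223-13516070_R, probe at chr16:13514766-13514825: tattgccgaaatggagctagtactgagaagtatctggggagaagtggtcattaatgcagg
chr12:81217572-81233910_R, probe at chr12:81222714-81222773: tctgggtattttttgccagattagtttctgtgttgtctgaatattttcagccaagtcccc
chr12:81221532-81232030_F, probe at chr12:81225954-81226013: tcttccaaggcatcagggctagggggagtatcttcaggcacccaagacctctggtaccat

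The fourth set differed between challenged mice with and without rapamycin.

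chr1:160888257-160910594_R, probe at chr1:160888258-160888317: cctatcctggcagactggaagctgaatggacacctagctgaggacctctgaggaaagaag
chr6:13801450-13853450_F, probe at chr6:13820587-13820646: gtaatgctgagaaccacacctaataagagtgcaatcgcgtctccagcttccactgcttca

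The fifth set is shown because its probes, on several chromosomes, share a short run of bases. The capitals mark the first GAGAGAG in each probe.

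chr5:120269342-120279542_R, probe at chr5:120278423-120278482: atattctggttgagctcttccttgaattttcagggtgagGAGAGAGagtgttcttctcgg
chr1:121982840-121983386_R, probe at chr1:121982865-121982924: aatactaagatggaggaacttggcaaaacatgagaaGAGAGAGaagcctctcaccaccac
chr13:27124478-27124684_F, probe at chr13:27124485-27124544: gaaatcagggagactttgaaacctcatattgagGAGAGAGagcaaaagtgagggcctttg
chr2:168804720-168854970_F, probe at chr2:168832618-168832677: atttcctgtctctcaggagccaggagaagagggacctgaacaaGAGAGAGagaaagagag
chr2:32950586-32984936_F, probe at chr2:32960437-32960496: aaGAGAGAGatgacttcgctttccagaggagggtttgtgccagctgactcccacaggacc
chr1:63264155-63345773_F, probe at chr1:63313366-63313425: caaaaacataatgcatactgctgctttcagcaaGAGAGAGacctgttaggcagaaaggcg
chr14:65720392-65769859_R: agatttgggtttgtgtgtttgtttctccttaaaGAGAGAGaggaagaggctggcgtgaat
chr6:133054025-133069850_R, probe at chr6:133054835-133054894: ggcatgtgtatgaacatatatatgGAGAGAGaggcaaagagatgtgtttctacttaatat

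A level is the log2 of a probe's processed signal minus the 75th percentile of its array, so a level of 0 is that percentile and levels of different probes are not compared. A difference is the mean level of 1 group minus that of another (log2, ± SE from limma), and a probe was called where its adjusted p, over all 27801 probes tested, was below 0.05. Where a probe was not well above background on any array of a group, the difference is a bound, given as "at least N-fold" against the dimmest detected signal of each array of that group. A probe that passed the detection rule only through groups on the higher side of a comparison had to be brighter there, so its bound and fitted difference are given as a description, without a p. This held for 5 of the 10 named rises and all 10 named falls under the challenge, and for 6 and 9 of the 10 named with rapamycin. Between BA+rapamycin and BA+DMSO it held for 3 of the 10 named regions.

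The arrays were not equally bright. The 75th percentile of signal was 221.5 to 279.8 intensity units in DMSO, 257.4 to 337.3 in rapamycin and 74.62 to 109.3 in BA+rapamycin. In BA+DMSO it was 132, 78.07 and 246.4, so replicate 3 of that group was as bright as the unchallenged arrays and replicate 2 was among the dimmest. Member probes well above background were 91.4% to 97.8% of members on the unchallenged arrays and 68.1% to 87.7% on the challenged arrays. The DMSO arrays and 1 rapamycin array lay on 1 slide and the other 8 on a second slide, so that slide and challenge can be separated only through the rapamycin group. The titles of 10 samples also carry a number that the labels do not explain, and of 4 challenged samples with one, 3 had a lower number than every unchallenged sample.

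Of the member probes, 2745 were well above background on all 12 arrays, in 1585 regions. The rest passed through some groups only: 446 through rapamycin alone, 108 through DMSO alone, 77 through BA+rapamycin alone and 19 through BA+DMSO alone. Among all lincRNA probes 30.9% passed, against 57.7% of the other probes on the array. A region was 11564 bp long at the median (62 to 533970 bp), 1226 regions were forward and 1254 reverse, and 1231 regions rested on 1 member probe. Just inside the threshold were 234 probes that passed through 1 group and were detected on at most 5 arrays in all, with a median level in their brightest group of -3.18 (quartiles -3.35 to -2.92). Just outside were 730 probes detected on 2 of 3 arrays of their best group, with a median of -3.15 (-3.55 to -2.65).

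The 6 smooth muscle genes tested were well above background on all 12 arrays, with a summed level between 11.27 and 12.25 and none called under the challenge. With rapamycin, Tagln rose by 1.05 and Smtn by 1.44 on 1 of its 2 probes while Des fell by 1.79 to levels of -1.46 to -0.65, and summed levels were 11.77 to 12.15 in BA+rapamycin against 11.33 to 11.57 in rapamycin. Markers of other cells moved with the challenge. All 6 leukocyte genes tested rose, with summed levels of 6.75 to 7.12 in DMSO, of 7.45 to 8.92 after BA+DMSO and of 8.52 to 8.95 after BA+rapamycin. Of 5 cell cycle genes, Mki67 and Birc5 rose, and the other 3 (Ccnb1, Cdk1 and Top2a) were higher on probes that passed the detection rule only through challenged groups. Their summed level was 0.75 to 1.09 in DMSO and 4.31 to 6.40 in BA+DMSO, and 4 of 5 immediate early genes fell, from a summed level of 6.93 to 7.23 in DMSO to 4.60 to 5.77 in BA+DMSO. The summed cell cycle level was -0.33 to -0.02 in rapamycin and 4.07 to 4.41 in BA+rapamycin. Between these 2 groups 3 immediate early genes were called lower, with summed levels of 6.00 to 6.43 in rapamycin and 5.58 to 6.71 in BA+rapamycin. Of the other lists, 3 of 3 erythroid, 2 of 5 endothelial, 1 of 4 fibroblast and 0 of 4 striated muscle genes tested rose under the challenge without rapamycin. Of 5 adipocyte genes, Ucp1 was higher but passed only through BA+DMSO, and the other 4 were not called. The part of these cells in the region values below was not tested.

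Under the challenge more regions were called higher than lower, an order that turned with array brightness as a covariate (196 higher and 221 lower) and without BA+DMSO replicate 2 (48.6% higher). It also turned with the number in the titles as a fixed block (71 higher and 179 lower), a fit in which 4 of the 12 arrays are alone in their level and carry no weight, so that BA+DMSO rests on replicate 1. On the other 8 arrays without that block, 536 regions were called higher and 484 lower. Comparing BA+DMSO with DMSO, 842 of 4996 member probes were called, which is 16.9% against a background of 20.5% of all probes tested. Of these, 483 were higher (9.67% of members, background 9.65%) and 359 lower (7.19%, background 10.8%). By region, 368 had a probe called higher, 217 a probe called lower and none had both, so that 62.9% of these calls were higher, against 82.1% after normexp background correction (a region called in both directions counts once in each). Among probes well above background on all 12 arrays, 545 of 2745 members were called (19.9%, background 21.2%), 383 higher (14%, background 10.7%) and 162 lower (5.9%, background 10.5%). The member probes of that set differed by 0.24 at the median against -0.017 over all probes, and 63.7% of them were higher against 48.7% of all. Over all member probes tested the median was 0.093 and 55.4% were higher. These directions depended on the setting: with brightness as a covariate the medians were -0.11 for members on all 12 arrays and -0.20 for all members, and for all members the median was -0.025 after quantile normalization and -0.059 without BA+DMSO replicate 2. The number of regions called rested on single arrays: it was 1183 without BA+DMSO replicate 3, and 310, 288, 175 and 320 without BA+DMSO replicate 1 and DMSO replicates 1, 2 and 3, respectively. With slide as a fixed block, 1 region was called (chr2:128142035-128142481_R, whose probe passed the detection rule only through BA+rapamycin), and with the title number as a fixed block, which leaves 2 residual degrees of freedom, 250 were, against 997 on the same 8 arrays without it.

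In mice on rapamycin, the challenge was followed by more calls, an order that turned with array brightness as a covariate (116 regions against 414 without rapamycin). Comparing BA+rapamycin with rapamycin, 1883 member probes were called (37.7%, background 41.7%), of which 1288 were higher (25.8%, background 18.9%) and 595 lower (11.9%, background 22.9%). They fell in 1246 regions, 943 with a probe called higher, 345 with a probe called lower and 42 with both. Among probes on all 12 arrays, 1232 were called (44.9%, background 44.1%), 942 higher (34.3%, background 20.7%) and 290 lower (10.6%, background 23.4%). Their median difference was 0.47 against -0.071 over all probes, and 69.0% were higher against 46.8% of all. Over all member probes it was 0.32, and 0.061 after quantile normalization. With brightness as a covariate the direction turned, with medians of -0.096 for members on all 12 arrays and -0.16 for all members. Using the arrays of the second slide only, 437 regions were called, without rapamycin replicate 3 the number was 775, and with the title number as a fixed block 554, against 1387 on the 8 arrays that carry weight in it, without the block. Counting a region once for each direction in which it was called, 73.2% of calls were higher, and 60.8% after quantile normalization and 90.8% after normexp background correction.

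**Figure D1:**
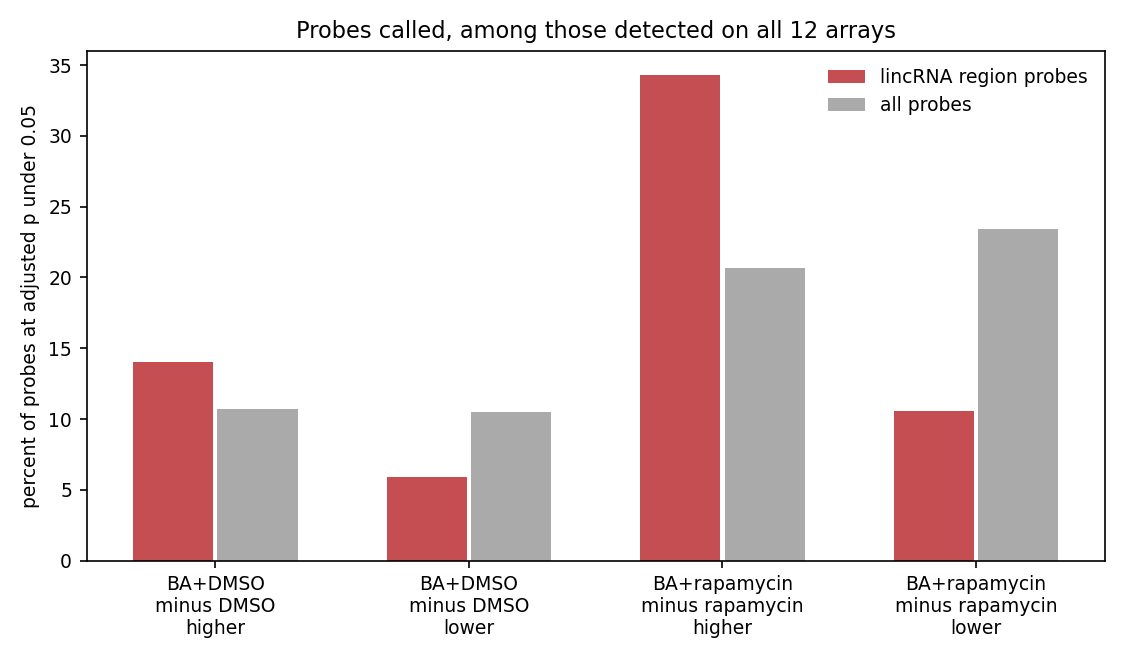
Percent of probes called higher and lower by limma (adjusted p below 0.05) among lincRNA member probes and among all probes tested, for probes well above background on all 12 arrays, in the challenge without rapamycin (BA+DMSO minus DMSO) and with it (BA+rapamycin minus rapamycin). Members lay above the background among higher calls (14 against 10.7 and 34.3 against 20.7) and below it among lower calls (5.9 against 10.5 and 10.6 against 23.4).

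The difference between both responses was itself tested. As an interaction (the challenge with rapamycin minus the challenge without it), limma called 0 member probes (0% of members, background 0%). The smallest adjusted p among members was 0.308. At an unadjusted p below 0.05 were 326 of 4996 member probes, beside 1702 of all 27801 probes tested. By the call rule of the methods (p below 0.01 and a fold above 4 or below 0.25) 10 regions passed. Without BA+DMSO replicate 2, 300 regions were called. How many of all probes passed in these settings is not given here, so these counts are not particular to lincRNA regions. Rapamycin alone (rapamycin minus DMSO) gave 0 called member probes (background 0.0036%), with a smallest adjusted p of 0.358 and 0 regions by the methods' rule. Here 161 of 4996 member probes were at an unadjusted p below 0.05, beside 1187 of all 27801 probes tested.

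The rises that headed the naming rule under the challenge lay on chromosome 17, in overlapping forward regions around 2700099C18Rik, which RefSeq lists as a transcribed pseudogene. For chr17:95150800-95180650_F, levels were -2.79, -2.60 and -3.21 in DMSO, -3.74, -3.41 and -3.41 in rapamycin, 1.86, -0.42 and 0.88 in BA+DMSO, and 0.11, -0.44 and -0.22 in BA+rapamycin. All 6 challenged arrays were above all 6 unchallenged arrays. The challenge difference was 3.64 ± 0.45 (adjusted p = 0.00072), and with rapamycin 3.33 ± 0.45 (adjusted p = 0.00064). The probe of chr17:95149413-95174473_F had a fitted difference of 3.61 ± 0.46. The array's own probe for 2700099C18Rik rose by 2.71, and by 3.39 with rapamycin. On the reverse strand of the same range, over Gm1976, levels in BA+DMSO were -2.97, -4.60 and -1.85 against -1.82, -2.22 and -2.34 in DMSO. That difference, -1.01 ± 0.54 for a probe that passed only through unchallenged groups, turned to 0.07 after normexp correction and 0.38 with brightness as a covariate, and the nearest coding gene, Mettl4, 24273 bp away, differed by -0.11 (adjusted p = 0.82).

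On chromosome 9, the forward region chr9:14460976-14488051_F rose at every member probe. The array places the noncoding RNA Gm7607 inside it, with a named probe that did not pass the detection rule. Levels of the leading probe were -1.83, -1.73 and -2.12 in DMSO, -2.26, -2.33 and -2.01 in rapamycin, 1.82, 0.02 and 1.19 in BA+DMSO, and -0.36, -0.42 and -0.61 in BA+rapamycin. The BA+rapamycin arrays lay between the unchallenged arrays and BA+DMSO without overlap. The challenge difference was 2.90 ± 0.36 (adjusted p = 0.00072) and the difference of BA+rapamycin from BA+DMSO was -1.48 ± 0.36 (adjusted p = 0.095), which did not pass. The other 4 probes rose by 2.34 to 2.53, all called, and differed by -1.44 to -2.18 between BA+rapamycin and BA+DMSO, none called.

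The region chr11:16831925-16851121_R overlaps Eldr (2810442I21Rik on the array), a noncoding RNA next to the epidermal growth factor receptor gene. Its levels were -3.08, -2.94 and -2.88 in DMSO, -3.44, -4.10 and -4.10 in rapamycin, 0.46, -1.01 and -0.20 in BA+DMSO, and -0.76, -1.72 and -1.13 in BA+rapamycin. Challenged and unchallenged arrays did not overlap, and the challenge difference was 2.72 ± 0.36 (adjusted p = 0.00094). The forward region chr10:117021051-117038683_F, over the kinesin pseudogene Kifc5c-ps, was well above background on no DMSO array and all 3 BA+DMSO arrays, and its bound was at least 5.10-fold higher (fitted difference 3.40 ± 0.37). The array's named probe for Kifc5c-ps differed by -0.004, and the reverse strand of the range by 0.57 ± 0.20 (adjusted p = 0.066). A region inside Kifc1, a kinesin of the mitotic spindle, was higher with its gene, with a difference of 2.62 ± 0.56 for chr17:34018371-34019394_R and a rise of 2.62 ± 0.63 (adjusted p = 0.016) for the gene's own probe. These kinesin sequences are close copies of each other, so which copy bound the probes is uncertain.

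**Figure D2:**
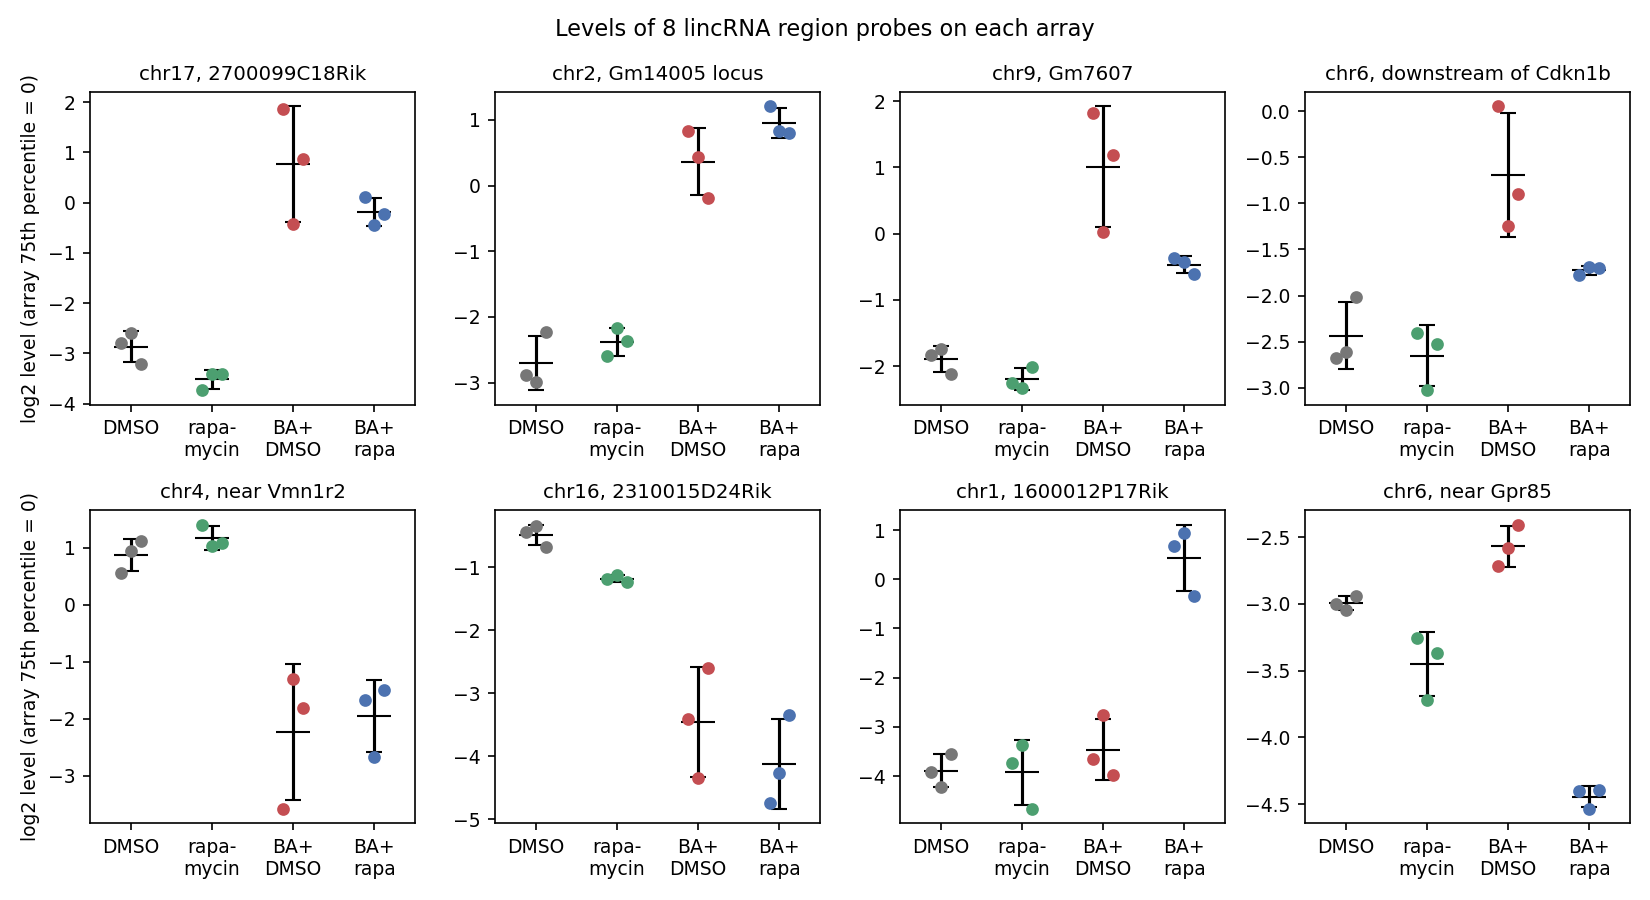
Levels (log2 signal relative to the array's 75th percentile, each panel on its own axis) of 8 region probes in the 4 groups. Points are arrays, bars the group mean and error bars the SD (n = 3). The panels for chromosome 17 and chromosome 2 show all 6 challenged arrays above the unchallenged ones, those for chromosome 4 and chromosome 16 show them below, and those for chromosome 1 and chromosome 6 near Gpr85 show BA+rapamycin apart from the other 3 groups.

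Neighbouring regions were joined into loci where gaps on a strand were at most 20 kb, which gave 1803 loci, 136 with 3 or more regions. Of these, 14 had at least 3 regions called under the challenge, 7 with higher calls only, 4 with lower calls only and 3 with both. This cut was chosen after the values were seen. Regions of a locus overlap and can report the same transcript, so their probes are not independent.

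The locus with the largest median rise was chr2:127988295-128217972_R. It holds Morrbid (Gm14005 on the array), a noncoding RNA known from short-lived myeloid cells, where it restrains the neighbouring gene Bcl2l11, which encodes the pro-apoptotic protein Bim. All 13 member probes in its 5 regions were called higher, by 1.70 to 3.97 (median 2.58, against -0.045 over all probes), and all 13 again with rapamycin, by 2.33 to 4.32. Since 5 of the 13 passed the detection rule only through challenged groups, the 8 probes on all 12 arrays are also given: all 8 were called in both comparisons, with medians of 2.65 and 3.31. The locus' median level was -2.92, -3.00 and -2.67 in DMSO, -2.70, -2.56 and -3.20 in rapamycin, -0.11, -0.29 and -1.16 in BA+DMSO, and 0.40, 0.05 and -0.02 in BA+rapamycin. Between BA+rapamycin and BA+DMSO, 13 of 13 probes were higher (median 0.76) and none was called.

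Within this locus, the probe of chr2:128142035-128142481_R read -6.28, -6.12 and -5.89 in DMSO, -6.07, -5.92 and -6.45 in rapamycin, -1.83, -2.38 and -2.17 in BA+DMSO, and -1.82, -2.03 and -1.64 in BA+rapamycin. It was well above background on none of the 6 unchallenged arrays and on 5 of the 6 challenged arrays. It passed the detection rule only through BA+rapamycin. As a description, its bound was at least 3.83-fold higher (fitted difference 3.97 ± 0.21), the largest value in the locus. The probe of chr2:128137419-128141735_R, detected on all 12 arrays, read -2.89, -3.00 and -2.23 in DMSO and 0.84, 0.44 and -0.18 in BA+DMSO (3.07 ± 0.28, adjusted p = 0.00019). With rapamycin it rose by 3.33 ± 0.28 (adjusted p = 8.2e-05). Farther along, chr2:128211990-128215223_R rose by 2.83 ± 0.31 (adjusted p = 0.0004) and by 3.49 ± 0.31 with rapamycin (adjusted p = 9.7e-05). Bcl2l11 lies 4307 bp from the locus on the opposite strand and its probe did not pass the detection rule. The leukocyte markers rose in the same arrays.

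On the forward strand of chromosome 12, chr12:110842149-110988678_F lies in an imprinted domain of noncoding RNAs and microRNAs expressed from the maternal chromosome, with Rtl1 13711 bp away on the opposite strand (not tested). All 24 probes in its 9 regions were higher under the challenge (0.07 to 2.00, median 1.29), and 14 probes in 8 regions were called. Of the 15 on all 12 arrays, 13 were called (median 1.39). With rapamycin 18 were called higher and 1 lower. The median level was -2.43, -3.08 and -2.35 in DMSO, -1.78, -2.04 and -2.39 in rapamycin, -1.23, -1.41 and -1.43 in BA+DMSO, and -0.85, -0.78 and -1.08 in BA+rapamycin. No challenged array reached down to an unchallenged one.

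Named genes of this domain moved the same way. Mirg, a host transcript of microRNAs inside the locus, rose on both of its probes, by 1.29 ± 0.24 (adjusted p = 0.0049) and 1.63 ± 0.25 (adjusted p = 0.0021). The second probe read 1.79, 1.57 and 1.72 in DMSO and 3.74, 3.28 and 2.93 in BA+DMSO. Meg3, a growth-restraining RNA of the same domain, was called on 2 of 3 probes (0.88, adjusted p = 0.044, and 0.62, adjusted p = 0.037), and the third differed by 0.34 (adjusted p = 0.50). With rapamycin, all 3 Meg3 probes rose, by 1.61, 1.69 and 0.57.

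The locus chr1:175653557-175672031_R lies over AI607873 (Ifi207), an interferon-inducible gene of the Ifi200 family, whose members are similar in sequence. All 11 probes in its 3 regions were called, by 1.49 to 1.71. The median level was -1.65, -2.10 and -1.98 in DMSO, -1.11, -1.73 and -0.93 in rapamycin, 0.42, -1.10 and -0.21 in BA+DMSO, and -0.72, -0.96 and -0.91 in BA+rapamycin. BA+DMSO replicate 2 and 1 BA+rapamycin array were below the highest rapamycin array. With rapamycin 2 of 11 probes were called (median 0.40). With brightness as a covariate the medians were 2.19 in the challenge and 1.49 in the challenge with rapamycin. The gene's own probe was not well above background in DMSO and rose at least 3.01-fold (fitted difference 1.84 ± 0.28, adjusted p = 0.0018).

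On the reverse strand of chromosome 5, the locus chr5:22801058-22939737_R around the noncoding RNA 5031425E22Rik had 8 probes called higher and 1 lower of 14 (median 1.49), and 6 called higher of the 8 on all 12 arrays (median 2.18). With brightness as a covariate the median of the 14 was 0.71. In the challenge with rapamycin their median was 2.33, and 1.18 with that covariate. A probe of chr5:22887983-22939658_R read -2.68, -2.66 and -2.23 in DMSO, -2.39, -2.21 and -1.98 in rapamycin, -0.06, -0.32 and -0.19 in BA+DMSO, and 1.44, 0.89 and 0.33 in BA+rapamycin. Its groups did not overlap between challenged and unchallenged arrays, and its difference was 2.34 ± 0.26 (adjusted p = 0.00046). With rapamycin it was 3.08 ± 0.26 (adjusted p = 8.2e-05), while BA+rapamycin and BA+DMSO differed by 1.07 ± 0.26 (adjusted p = 0.095). On chromosome 18, the 7 probes of chr18:63455560-63548085_R differed by 2.02 to 2.46 and 5 were called, and with rapamycin all 7 were (median 3.62), but 5 of the 7 passed only through challenged groups. Its nearest coding gene, Fam38b (the mechanically gated channel Piezo2), 185979 bp away on the same strand, differed by 2.35 (adjusted p = 0.057).

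Both strands of chr17:39960567-39992817 rose together. The forward strand holds Rn18s, the RNA of the small ribosomal subunit, which is present in many copies. Its median level was 3.53, 3.72 and 4.02 in DMSO, 3.64, 3.82 and 3.14 in rapamycin, 5.60, 6.54 and 4.24 in BA+DMSO, and 5.89, 6.39 and 5.93 in BA+rapamycin. BA+DMSO replicate 3, the brightest array of its group, was close to the unchallenged arrays. On the reverse strand 10 of 10 probes were called (median 1.50), and on the forward strand 7 of 10 (median 1.48). Within groups, these levels followed array brightness (median r of -0.91 on the reverse and -0.93 on the forward strand), and with brightness as a covariate the medians were 0.55 and 0.41. The part of brightness in the rise was not tested further.

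**Figure D3:**
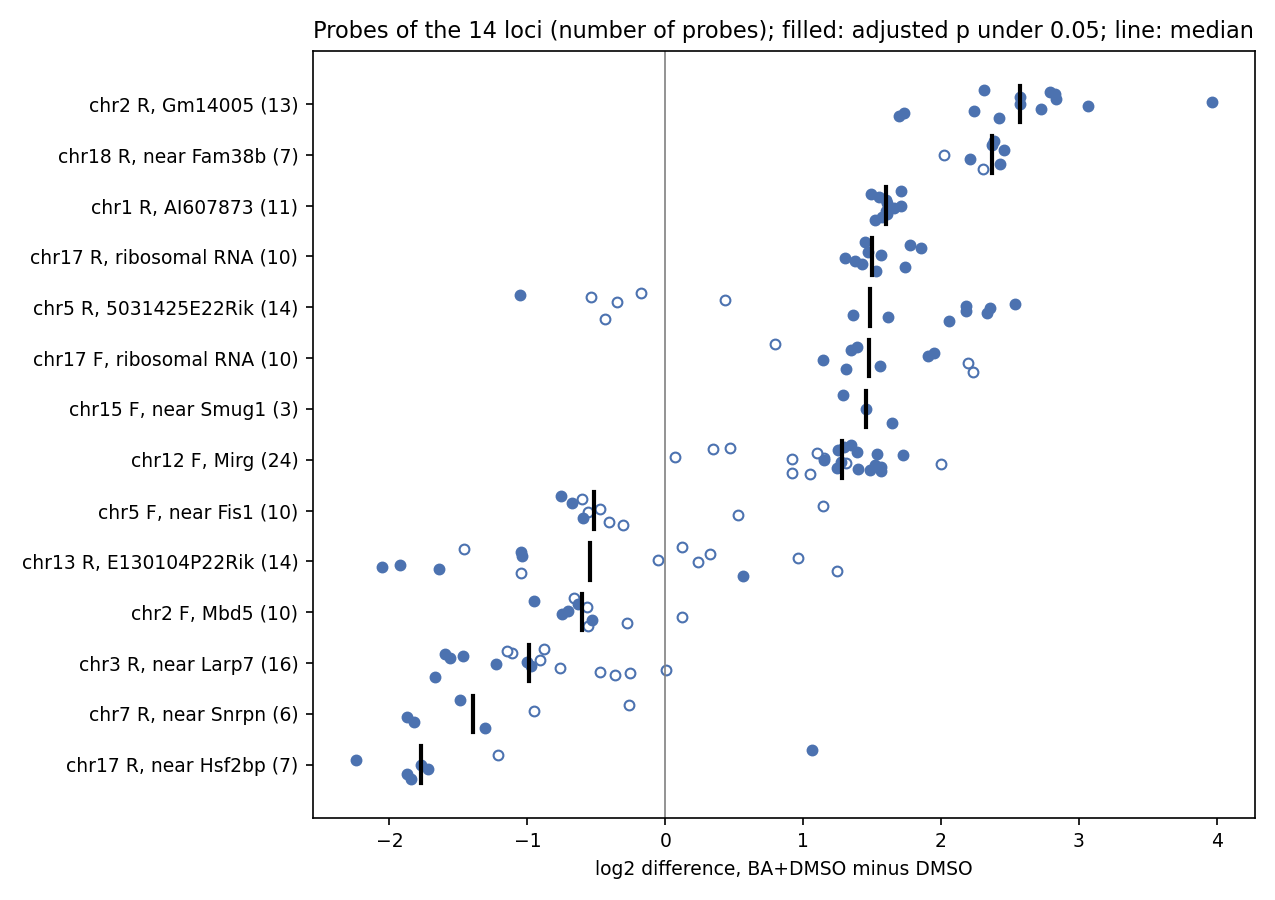
Challenge difference (BA+DMSO minus DMSO, log2) of every member probe in the 14 loci with at least 3 called regions. Each point is a probe, filled where its adjusted p was below 0.05, and the line is the locus' median. The chromosome 2 locus stands highest with 13 of 13 probes filled, and 3 loci hold filled points on both sides of 0.

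The fall that headed the naming rule was near the start of chromosome 4. All 3 member probes of chr4:3169583-3180017_F were lower, with no named transcript inside and the nearest coding gene, Vmn1r2, 69433 bp away. The leading probe read 0.56, 0.95 and 1.12 in DMSO, 1.41, 1.03 and 1.09 in rapamycin, -3.58, -1.31 and -1.81 in BA+DMSO, and -1.67, -2.68 and -1.50 in BA+rapamycin. Every challenged array was below every unchallenged one. The difference was -3.11 ± 0.50, and with rapamycin -3.12 ± 0.50.

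The noncoding RNA 2310015D24Rik was lower in step with its region. For chr16:13514223-13516070_R, levels were -0.45, -0.35 and -0.67 in DMSO, -1.18, -1.13 and -1.24 in rapamycin, -3.41, -4.35 and -2.61 in BA+DMSO, and -4.75, -4.27 and -3.34 in BA+rapamycin. It was well above background on 1 of the 6 challenged arrays. The difference was -2.96 ± 0.42, its other probes differed by -2.86 and -3.34 (the latter beyond the chromosome 4 probe), and the named probe of 2310015D24Rik by -2.86. The nearest coding gene, Parn, which encodes a poly(A) ribonuclease 22365 bp away on the same strand, fell by 1.04 (adjusted p = 0.010), and differed by -0.54 with brightness as a covariate.

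On chromosome 12 a region that was lower lies 8491 bp from Zfp36l1, whose protein binds AU-rich messenger RNAs and speeds their decay. The leading probe of chr12:81217572-81233910_R read -2.46, -2.44 and -2.54 in DMSO, -2.51, -2.15 and -3.05 in rapamycin, -4.89, -4.48 and -4.36 in BA+DMSO, and -4.88, -4.42 and -3.38 in BA+rapamycin. It was well above background on every unchallenged array and on no challenged array, so it was at least 1.69-fold lower (fitted difference -2.10 ± 0.35). The other 6 probes of the region differed by -0.22 to -1.37. Zfp36l1 itself, on the same strand, fell by 0.96 (adjusted p = 0.014). The overlapping forward region chr12:81221532-81232030_F, picked after its values were seen, read -1.91, -3.92 and -4.14 in DMSO and -0.11, 0.25 and -1.67 in BA+DMSO. It passed the detection rule only through challenged groups, and the differences were 2.81 ± 0.97 and, with rapamycin, 4.44 ± 0.97. The 2 member probes of chr12:81217572-81233910_F, on the same strand, differed by -0.04 and 0.47 in the challenge and by 0.35 and 1.45 with rapamycin, none called.

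The other falls named by size were smaller. For chr13:28551902-28975446_R, over the noncoding RNA E130104P22Rik, levels were -1.12, -1.41 and -2.24 in DMSO and -3.80, -3.13 and -4.02 in BA+DMSO, at least 3.12-fold lower (fitted difference -2.06 ± 0.31). Its nearest coding gene, the transcription factor Sox4, 67410 bp away, went the other way and rose by 1.04 (adjusted p = 0.014). In the locus that holds the region, chr13:28477490-28985604_R, 5 of 14 probes were called lower and 1 higher (median -0.55). The 7 of these on all 12 arrays had a median of 0.12. For chr10:24269165-24276690_R, 41591 bp from Ctgf (Ccn2, a matrix-associated growth factor), the region was at least 2.00-fold lower (fitted difference -1.95 ± 0.36), and Ctgf differed by -0.11. The region chr12:53669892-53710742_F, 1746 bp from Arhgap5 on the same strand, differed by -1.98 and by -0.68 with brightness as a covariate, and Arhgap5 differed by -0.69 (adjusted p = 0.053). The bounds of chr12:112224193-112225328_R, chr6:93029101-93031007_F, chr15:102032892-102033838_R and chr1:73004154-73007481_F were at least 1.83-, 1.18-, 1.17- and 1.04-fold lower, and after normexp correction these differences changed sign.

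Among the loci with lower calls, chr7:67111261-67120697_R lies 6729 bp from Snrpn, an imprinted gene, on the same strand. Of its 6 probes 4 were called (median -1.40), none of the 6 was well above background on all 12 arrays, 5 passed only through unchallenged groups, and Snrpn differed by -0.78 (adjusted p = 0.065). The locus' median level was -1.99, -1.42 and -1.85 in DMSO and -3.07, -3.60 and -2.70 in BA+DMSO. On chromosome 17, chr17:32035750-32076590_R had 5 probes called lower and 1 higher of 7 (median -1.77), 1 of each among the 2 on all 12 arrays, with Hsf2bp 5169 bp away. Along chr3:126969590-127201919_R, 7 of 16 probes were called lower (median -0.98, and -1.72 with brightness as a covariate). In the challenge with rapamycin the median was -0.95, and -2.17 with that covariate. At this locus, BA+DMSO replicates 1 and 3 were at -1.59 and -1.62 while replicate 2 was at 0.15, as high as DMSO (-0.38 to 0.14).

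In the challenge with rapamycin, the 10 falls of the naming rule included the chromosome 4 and chromosome 16 regions above. The first was on chromosome X, where chrX:90997595-91009570_R read -0.89, -0.58 and -0.42 in rapamycin and -3.15, -4.34 and -4.10 in BA+rapamycin, at least 4.19-fold lower (fitted difference -3.23 ± 0.45, and -1.33 with brightness as a covariate). Its BA+DMSO values, -2.11, -2.89 and -0.86, lay between those of DMSO (-0.30, -0.03 and -0.32) and BA+rapamycin. The 9 probes of the region differed by -3.23 to 0.88. Pdk3, a kinase that inhibits pyruvate dehydrogenase, lies 657 bp away on the same strand and fell by 1.60 with rapamycin (adjusted p = 0.0046), against -0.29 with brightness as a covariate.

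All 10 rises that the naming rule gave in the challenge with rapamycin carried GAGAGAG in the probe, which was noticed after the values were seen. For chr5:120269342-120279542_R, levels were -5.29, -6.37 and -6.51 in rapamycin and 1.15, 2.28 and 1.14 in BA+rapamycin, at least 48.7-fold higher (fitted difference 7.58 ± 1.63, and 0.47 with brightness as a covariate). In BA+DMSO they were 0.77, 1.99 and -5.83, and in DMSO -5.91, -3.30 and -2.51. BA+DMSO replicate 3 lay with the unchallenged arrays, and so it did on each of the other 9 probes. For chr2:168804720-168854970_F, which was detected on all 12 arrays, levels were 0.14, -0.38 and -1.16 in rapamycin, 4.51, 5.65 and 4.46 in BA+rapamycin, and 4.13, 5.20 and -1.82 in BA+DMSO. The 9 after the first were 4.92 to 5.72. The rule keeps 1 probe of a range, that with the smallest adjusted p, and so leaves out probes with the motif at 5.23 (chr17:88225376-88238756_F) and 5.19 (chr14:33923944-34003394_F). The probes of the named challenge rises and falls, of the named falls with rapamycin and of the regions called between BA+rapamycin and BA+DMSO listed here did not hold the motif (0 of 10 in each), although a second probe of chr3:79075801-79076428_F, from the last set, did.

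GAGAGAG, searched on the probe's own strand, occurred in 67 of 4996 member probes (1.34%), in 186 other tested probes (0.816%) and in 0.681% of all probes on the array. The median difference in the challenge with rapamycin was 3.11 for member probes with it and 0.30 without, and 55 of the 67 were called higher (82.1%, against 25% of members without it and a background of 18.9% of all probes). Of the 35 on all 12 arrays, 29 were. Without rapamycin the medians were 1.78 and 0.088, but 5 of the 67 were called higher (7.46%, against 9.7% without it and a background of 9.65%). Among member probes called higher by more than 4 with rapamycin, 28 of 39 held it. The other tested probes with the motif had a median of 0.88, against -0.16 without, and 95 of 186 were called higher (51.1%, against 17.1% without). The complement, CTCTCTC, in 63 member probes and 0.542% of all probes, went with a median of 0.17 against 0.32 without.

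The levels of these probes moved with array brightness. Over the 35 on all 12 arrays, the median level was -1.42, -0.80 and -0.33 in DMSO, -1.06, -1.22 and -1.41 in rapamycin, 0.63, 1.68 and -1.83 in BA+DMSO, and 1.06, 1.98 and 1.44 in BA+rapamycin. The bright BA+DMSO array was the lowest of all 12 and the dim arrays were the highest. Within groups, the level's correlation with brightness was -0.90 at the median of the 67 and -0.39 over members without the motif, as a description over 12 arrays that share library and scan. With brightness as a covariate the median difference of the 67 with rapamycin was -0.30, and -0.16 for members without the motif. In the challenge without rapamycin these medians were -0.54 and -0.19. Since a rise in these RNAs and a property of dim arrays cannot be told apart here, counts of regions are also given without these probes: 580 regions called under the challenge and 1207 with rapamycin.

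**Figure D4:**
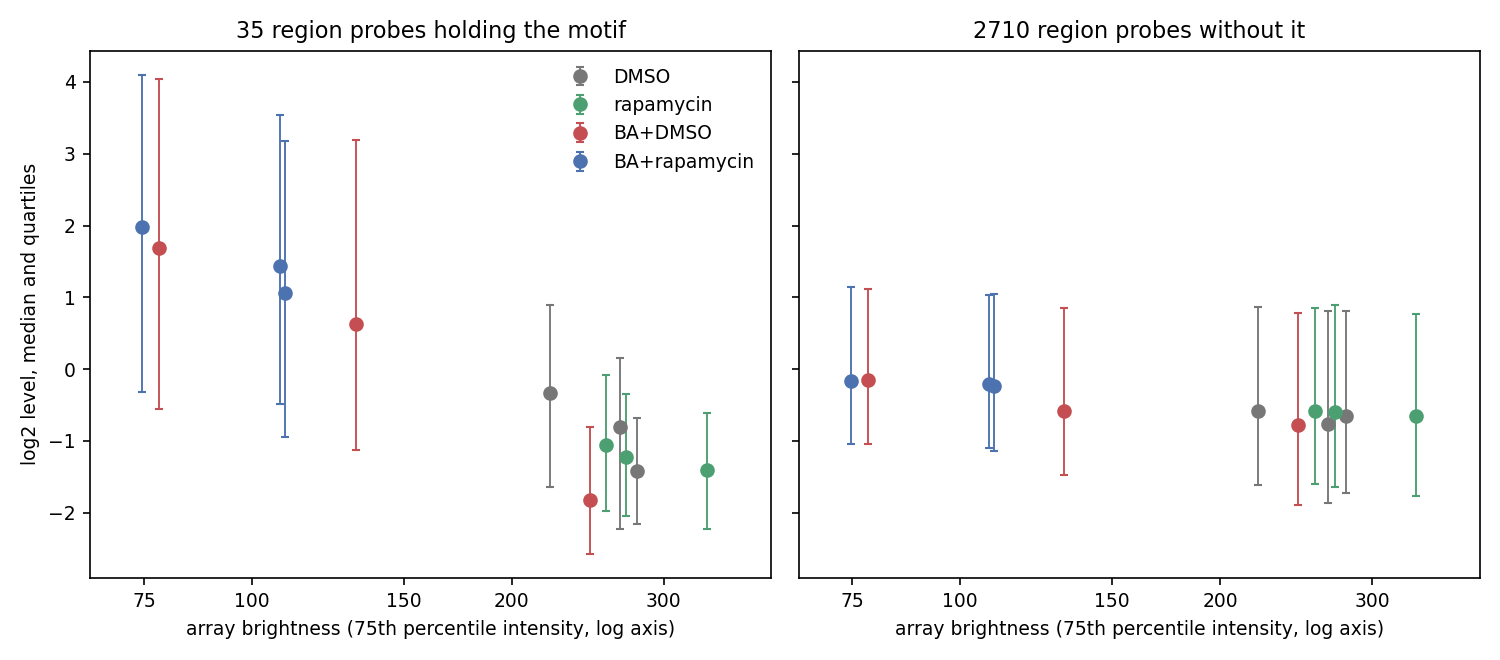
Level (log2 relative to the array's 75th percentile) of lincRNA member probes on all 12 arrays, as median and quartiles per array, against the brightness of the array (75th percentile of signal, intensity units), for 35 probes with GAGAGAG and 2710 without. The medians with the motif run from -1.83 on the bright BA+DMSO array to 1.98 on the dimmest BA+rapamycin array, and those without it from -0.77 to -0.15.

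Base composition moved with the challenge difference as well. Among member probes on all 12 arrays, the median was -0.34 for 284 probes with at most 35% G and C, 0.08 for 1360 up to 45%, 0.39 for 726 up to 55% and 0.66 for 375 above that. Called higher were 2.11%, 9.27%, 18.7% and 30.7%, respectively. Other tested probes on all 12 arrays showed the same order, with medians of -0.29, -0.05, 0.18 and 0.59. Of these other probes 6.185%, 9.735%, 15.04% and 28.48% were called higher, so the order is not particular to lincRNA regions. With brightness as a covariate the member medians were -0.34, -0.23, 0.03 and 0.18. The part of composition in single regions was not tested.

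Whether rapamycin altered region levels in challenged mice was asked by comparing BA+rapamycin with BA+DMSO, all on 1 slide. Of the member probes 11 were called (0.22%, background 0.281%), 9 higher (0.18%, background 0.0719%) and 2 lower (0.04%, background 0.209%), in 11 regions. Among probes on all 12 arrays limma called 0 members (0%, background 0.177%). Over all member probes, 939 of 4996 were at an unadjusted p below 0.05, beside 5585 of all 27801 probes tested. The median of members was 0.31 against -0.0096 over all probes. It was 0.11 with brightness as a covariate, and 0.50 and 0.14 without BA+DMSO replicates 2 and 3. Without BA+DMSO replicate 2, 1151 regions were called, and without other single arrays 4 to 21, so that the count rested on that array. By the methods' call rule 8 regions passed, and with normexp correction or without the unchallenged groups none was called. The share of all probes that passed under these alternatives is not given here.

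The largest of these was chr1:160888257-160910594_R, over the noncoding RNA 1600012P17Rik. Its levels were -3.91, -4.22 and -3.55 in DMSO, -3.73, -3.38 and -4.67 in rapamycin, -3.65, -2.77 and -3.97 in BA+DMSO, and 0.68, 0.95 and -0.33 in BA+rapamycin. The last group stood above the other 9 arrays. It was at least 12.7-fold higher than BA+DMSO (fitted difference 3.90 ± 0.43), and differed from rapamycin by 4.36 ± 0.43. It passed the detection rule only through BA+rapamycin. The region's other probes, which passed in the same way, differed from BA+DMSO by 2.98 and 2.85. The nearest coding gene, Pappa2, a protease that frees insulin-like growth factors from their binding proteins, lies 123345 bp away on the same strand. It read -1.32, -1.31 and -1.52 in BA+DMSO and 1.08, 0.97 and 0.66 in BA+rapamycin, and so rose by 2.29 ± 0.21 (adjusted p = 0.0055).

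Of the falls, the region chr6:13801450-13853450_F, over the noncoding RNA 1110019D14Rik and 16299 bp from Gpr85, read -2.71, -2.58 and -2.41 in BA+DMSO and -4.40, -4.54 and -4.39 in BA+rapamycin, at least 1.09-fold lower (fitted difference -1.88 ± 0.17, adjusted p = 0.0055). The region chr1:135956616-135957485_R was low in both groups on rapamycin, at -3.47, -3.12 and -3.00 in rapamycin and -3.78, -3.16 and -3.47 in BA+rapamycin, against -1.79, -1.66 and -2.14 in DMSO and -1.54, -2.12 and -1.88 in BA+DMSO. Between challenged groups it was at least 1.80-fold lower (fitted difference -1.63 ± 0.23), having passed only through DMSO, and for rapamycin alone the fitted difference was -1.34. Fibromodulin (Fmod), a collagen-binding proteoglycan 12559 bp away on the opposite strand, differed by -1.85 between challenged groups (adjusted p = 0.078).

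In 5 of the smaller rises, levels in BA+DMSO were below those of DMSO and BA+rapamycin without overlap. For chr8:129102060-129109035_F, 3359 bp from Irf2bp2 on the opposite strand, levels were -2.61, -2.75 and -2.70 in DMSO, -3.52, -3.51 and -4.30 in BA+DMSO, and -2.06, -2.20 and -2.53 in BA+rapamycin. It was at least 1.46-fold lower in the challenge and at least 1.96-fold higher in BA+rapamycin than in BA+DMSO (adjusted p = 0.031). The regions chr2:94008913-94019798_R, chr13:107822042-107823753_F, chr3:79075801-79076428_F and chr3:95443225-95444967_F followed the same order. The first and second were well above background on no BA+DMSO array, and were at least 1.64-fold and 1.31-fold lower in the challenge and at least 2.14-fold and 1.56-fold higher in BA+rapamycin than in BA+DMSO. The other pair was well above background on 1 BA+DMSO array each, with challenge differences of -0.80 and -0.78 and called rises over BA+DMSO of 1.27 and 1.18. Both comparisons use the BA+DMSO arrays. The region chr14:20893694-20903726_R was among the 11 called but was well above background on none of the 6 challenged arrays, so no difference is given. The region chr18:38776580-38841080_F, 30598 bp from Spry4 (an inhibitor of growth factor signalling) on the opposite strand, was at least 2.03-fold higher. Its probe passed the detection rule only through BA+rapamycin. The 11th called region ranked below the 10 named by size.

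Every region had a nearest coding gene on the array, 1259 genes in all, tested for 2036 regions. The median distance was 21730 bp, with 158 regions holding the coding probe inside, 419 within 5 kb, 1144 within 50 kb and 759 farther. Across these 2036 pairs, in which regions can share a gene, the correlation of challenge differences was 0.14. It was 0.24 for 1170 pairs on the same strand and 0.002 for 866 on opposite strands. Where the coding probe lay inside the region on the same strand it was 0.72 (88 pairs), and 0.29 for 238 same-strand pairs within 5 kb. With both probes on all 12 arrays these were 0.54 (48 pairs) and 0.24 (130 pairs). With 1 probe standing for each region, that detected on most arrays, both were called in 93 pairs, 61 in 1 direction and 32 in opposite directions, while 252 regions were called without their gene. The gene was thus called beside 27.0% of the 345 regions called by that probe, against 23.0% of all 2036 pairs. With rapamycin both were called in 375 pairs, 194 in 1 direction and 181 in opposite directions, or beside 47.5% of 790 regions so called against 46.7% of all.

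Within 5 kb, the naming rule gave 5 pairs called together and the 5 pairs with the largest gap between region and gene. The gap of the latter was thus set by the rule. Cyr61 (Ccn1), a matrix protein induced early by stress and stretch, and chr3:145313275-145315057_F, 3029 bp away on the opposite strand, both fell. The region read 1.26, 1.12 and 0.91 in DMSO, -0.68, -1.10 and -0.00 in BA+DMSO, and 1.03, 0.99 and -0.05 in BA+rapamycin (challenge -1.69 ± 0.33, adjusted p = 0.0059). Cyr61 read 6.65, 6.89 and 6.48 in DMSO and 4.84, 2.49 and 4.53 in BA+DMSO (-2.72 ± 0.62, adjusted p = 0.013). The other pairs together were that of Kifc1 and 3 regions of the AI607873 locus, given above.

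Cdkn1b, which encodes the cell cycle inhibitor p27, fell while the regions next to it rose. The region chr6:134879009-134880130_F, 3526 bp away on the same strand, read -2.68, -2.61 and -2.02 in DMSO, -2.41, -3.03 and -2.52 in rapamycin, 0.05, -1.24 and -0.89 in BA+DMSO, and -1.78, -1.69 and -1.70 in BA+rapamycin. It rose by 1.74 ± 0.32 (adjusted p = 0.0045), and chr6:134875724-134931975_F, 241 bp from the gene, by 1.47 ± 0.32 (adjusted p = 0.011). Inside the latter lies Lockd (1190002F15Rik), a noncoding RNA downstream of Cdkn1b, whose probe rose by 1.97. Cdkn1b read 3.41, 3.65 and 3.57 in DMSO and 2.81, 2.79 and 2.92 in BA+DMSO (-0.70 ± 0.14, adjusted p = 0.0076), without overlap. Elsewhere, chr17:29374758-29387733_R, 47 bp from Ppil1 on the same strand, rose by 1.74 (adjusted p = 0.0052) while Ppil1 differed by -0.05, and chr5:124667541-124700029_F rose by 1.73 (adjusted p = 0.007) while Mphosph9 differed by -0.61. With brightness as a covariate these regions differed by 0.95 and 0.92. The region chr17:21866967-21891392_R was at least 4.53-fold higher (fitted difference 2.985, and 1.97 with brightness as a covariate). Zfp229, inside it on the opposite strand, differed by -0.60, a sign that turned with that covariate (0.37).

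Transcripts that the array names inside a region on the same strand, coding or not, were closer to it. For 360 regions with such a probe tested, the challenge differences correlated at 0.60 and 69.4% had the same sign. Both were called in 60 of them, 54 with medians of 1 sign and 6 of opposite sign. Of the called regions with a tested transcript inside, 56.1% had a called transcript, against 27.2% of the 360. For the 84 in which all probes were on all 12 arrays, the correlation was 0.80, the share was 81.0%, and the 14 called in both were of 1 sign. Region and transcript probes may bind the same RNA. Examples, as region and transcript, were Man1a2 (-1.26 and -1.08), Ttll7 (-1.24 and -0.67) and Zfp626 (-1.05 and -0.80).

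**Figure D5:**
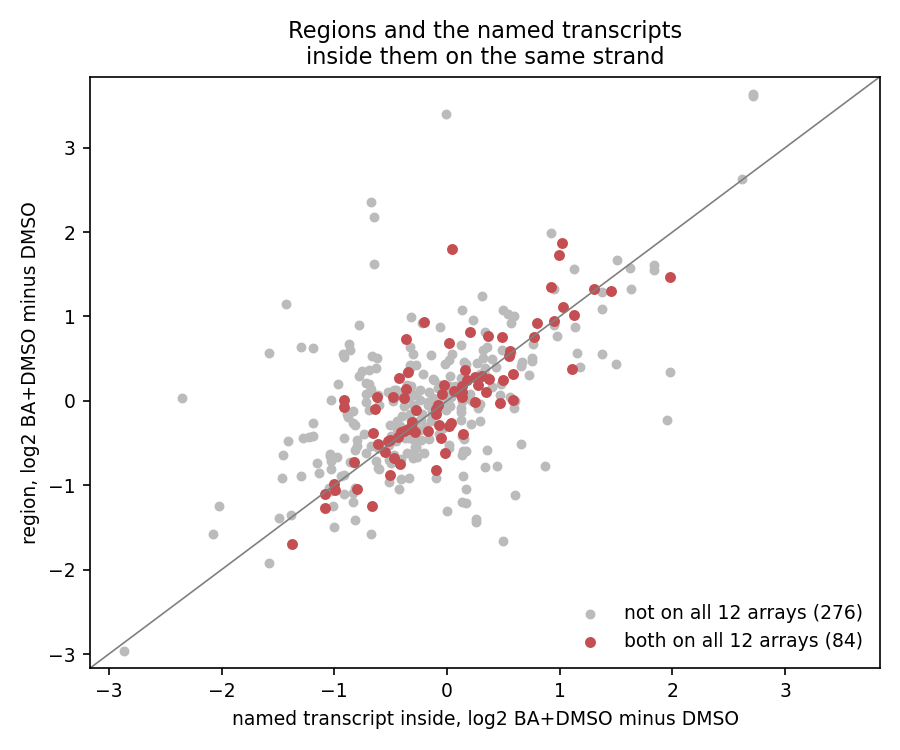
Challenge difference (BA+DMSO minus DMSO, log2) of a lincRNA region, as the median of its probes, against that of the transcript the array names inside it on the same strand. Each point is a region, 84 of the 360 with all probes on all 12 arrays, and the line is equality. The points of the first kind lie along the line (correlation 0.80), and those of the second kind are more scattered.

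The array carries both strands of 1067 ranges, of which 443 had a member on 1 strand and 204 had none. In the other 420 both strands were members, each again taken by 1 probe. The challenge differences of the strands in these 420 ranges correlated at 0.17. Under the challenge both strands were called in 10 ranges, 7 in 1 direction and 3 in opposite directions, and a single strand in 115. The partner of a called strand was called in 14.8% of cases, against 16.1% of all strands of these ranges. With rapamycin both were called in 85 ranges, 71 in 1 direction and 14 in opposite directions, and a single strand in 184, so that the partner was called in 48.0% of cases against 42.1% of all strands. The ranges whose strands differed most were named by rule. In chr6:145936225-145965575 the forward strand, which passed the detection rule only through unchallenged groups, differed by -1.81 and the reverse strand rose by 0.90 (adjusted p = 0.0026). In chr13:48620882-48643532 the forward strand rose by 1.40 (adjusted p = 0.021) and the reverse fell by 1.00 (adjusted p = 0.035). Both of these followed array brightness within groups (r of -0.94 and 0.78), and with brightness as a covariate the differences were 0.53 and -0.42. In chr9:27148989-27155714 the forward strand differed by 0.12, a sign that turned with brightness as a covariate. The reverse strand there was well above background on no unchallenged array, at least 3.61-fold higher in BA+DMSO, whose values overlapped those of DMSO, and at least 7.73-fold higher with rapamycin. Its probe holds GAGAGAG, and its fitted differences of 2.67 and 4.12 became 0.59 and 0.46 with brightness as a covariate.

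Within regions, of 304 regions with 3 or more probes on all 12 arrays, 212 had all of them on 1 side in the challenge, with a median range of 0.42 between the highest and lowest probe, and 206 in the challenge with rapamycin, with a median range of 0.69.

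Known long noncoding RNAs outside the coordinate-named probes gave a frame for these values. Of 58 listed, 31 were on the array and 24 were tested, by 41 probes. Under the challenge 3 were called higher and 2 lower, with a median of 0.27 against -0.045 over all probes. H19, an imprinted RNA of fetal tissues and growing vessel wall, rose on both of its probes detected on all 12 arrays, and was higher on 2 that passed only through BA+rapamycin. Its probe with the lowest adjusted p read -1.23, -2.90 and -1.90 in DMSO and 3.48, -0.58 and 2.28 in BA+DMSO (3.73 ± 0.81, adjusted p = 0.01). Mirg and Meg3 were the others. Peg13, an imprinted RNA, fell by 1.31 (adjusted p = 0.0063), and Tug1 fell on 1 of 3 probes, by 0.66 (adjusted p = 0.04). Malat1, an abundant nuclear RNA, differed by -0.80 (adjusted p = 0.074). With rapamycin 7 had a probe called higher and 3 a probe called lower, with Tug1 among both. The called probes were 22% and 39% of the 41, beside a background of 20.5% and 41.7% of all probes, and between BA+rapamycin and BA+DMSO none was called, with Neat1, the scaffold of paraspeckles, at 0.88 (adjusted p = 0.096).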

How the data were processed

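RNA of mouse aorta was labelled with Cy3 and hybridised to 12 one-colour Agilent arrays, 3 per group. The authors deposited scanner tables of intensity, background-subtracted by Feature Extraction (10.7.1.1 per the file headers, 9.5.1.1 per the submitters' processing notes), with mm9 probe coordinates. They also deposited a table of processed intensities, which served as an alternative. In log2, it matched quantile-normalized intensities of the same arrays (lowest r 0.999941). Processed intensities were log2-transformed, and the 75th percentile of each array was subtracted. Control spots were left out and spots of a probe averaged. A probe was tested where at least 0.5 of its spots were well above background on all 3 arrays of a group (27801 probes). Groups were compared with limma 3.58.1 in R 4.3.3 in 1 fit over all arrays, with 5 contrasts and Benjamini-Hochberg adjustment over all tested probes, called below 0.05. No probe was saturated. The number of arrays limits the precision.

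The members and all lists were chosen with earlier results of these data known. Named regions were the 10 largest rises and falls among called regions whose groups did not overlap in each challenge comparison, all called regions up to 10 in the others, 5 pairs each called with or without a coding neighbour within 5 kb, and ranges whose strands differed. Other regions named (those of the loci, the chromosome 12 forward region, the examples with a transcript inside and further regions given for the motif, a strand or a block) were chosen after values were seen. Gene symbols were updated through RefSeq names (GRCm38.p6), and sequences are those of the array files. The code was tested on simulated data. Alternatives were other scalings, background corrections, filters, slide, title number and brightness terms, the methods' call rule and leaving out each array.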

Additional observations from a re-analysis of the deposited data

How the results depend on the processing

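No paired analysis was possible because the numbers that end the sample titles repeat within groups and so do not number replicates. A longer number in the titles was instead used as a batch. Of 5 such numbers, 3 are shared by 2 groups, none by both groups of a challenge comparison, and as a block, added after the data were seen, they had a consensus correlation of 0.50. As a fixed block, 4 arrays alone in their level carry no weight (2 of BA+DMSO), and the other 8 were also fitted without the block, with the lone BA+DMSO array taken to vary like the other groups. The 585 regions called under the challenge became 96 with only the 2 groups fitted, 1 with slide as a fixed block, 1084 with slide as a random block, 250 with the title number as a fixed block (997 on those 8 arrays without it, 564 as a random block) and 45 by the methods' call rule, and ranged from 175 to 1183 when each array was left out. The 11 regions called between BA+rapamycin and BA+DMSO became 57 with the title number as a random block. They became 0 with it as a fixed block (283 on the 8 arrays without it). The number was 62 with the percentile taken over probes detected on all arrays and 27 with brightness as a covariate. It was 26 with the deposited table in log2, 25 with quantile normalization, 6 with the slide block and 3 without the filter. It was 0 with normexp, with probes on all 12 arrays, with 1 slide or with only those groups. When each array was left out it ranged from 4 to 1151 (without BA+DMSO replicate 2). The 1246 regions called in the challenge with rapamycin became 116 with brightness, 437 on 1 slide, 554 with the title number as a fixed block (1387 on the 8 arrays without it, 1171 as a random block), 3746 without the filter, 2142 with normexp and 223 by the methods' rule, and ranged from 775 to 1570. The interaction gave 0 regions, 10 by the methods' rule, and from 0 to 300 when an array was left out. Rapamycin alone gave 1 on those 8 arrays and 0 under the other alternatives run. Shares of all probes called under these alternatives are not given here, so the counts are not particular to lincRNA regions.

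The share of higher calls under the challenge was 62.9%, and 28.4% with the title number as a fixed block (52.5% on the same 8 arrays without it), 47.0% with brightness, 55.6% with quantile normalization, 48.6% without BA+DMSO replicate 2, 75.4% with probes on all 12 arrays, 80.8% without the filter and 82.1% with normexp. Over all probes, the median difference in the challenge was -0.045, and 0.093 with normexp and 0.434 without the filter. In the challenge with rapamycin it was -0.085, and 0.10 with the percentile over detected probes, -0.18 with quantile normalization, 0.136 with normexp and 0.847 without the filter, which adds dim probes. Between the challenged groups it was -0.0096, and 0.13 with the percentile over detected probes and 0.359 without the filter.

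Of 1657 recomputed values of 67 named results, 1369 kept their direction and side of the threshold, 260 lost the call, 10 gained it and 18 changed sign; the cause was not tested. With normexp, challenge differences became 0.12 for chr1:73004154-73007481_F, 0.034 for chr12:112224193-112225328_R, 0.19 for chr6:93029101-93031007_F, 0.10 for chr15:102032892-102033838_R and 0.073 for chr17:95150800-95180650_R. With rapamycin they became 0.11 for chr14:78214602-78225827_R, 0.014 for chrX:148720661-148763177_R and 0.21 for chr18:84757475-84757969_R. With brightness, rises with rapamycin became -0.32 for chr13:27124478-27124684_F, -1.22 for chr2:168804720-168854970_F, -1.21 for chr14:65720392-65769859_R, -0.93 for chr4:33375464-33377138_R and -0.75 for chr5:149751979-149808240_F, and challenge differences 0.38 for chr17:95150800-95180650_R and -0.49 for chr9:27148989-27155714_F. The last became -0.52 with the title number as a fixed block (-0.256 on the 8 arrays without it) and ranged from -0.35 (without BA+DMSO replicate 2) to 0.39 when each array was left out.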
